A study of Mus musculus with 22 samples.

Results

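Livers of TG Aire-/- mice from which CD8+ T cells had been depleted were compared with livers of TG Aire-/- mice that received no treatment. The comparison took 2 bulk RNA libraries a side, chosen by the genotype and treatment in the labels, which is 4 of the 22 libraries of the series. The 2 Aire+/+ livers of the same table, also untreated, served as a further level beside them. A single library of CD8+ T cells sorted from untreated TG Aire-/- liver showed which genes those cells express. According to its title the series follows an overlap of autoimmune hepatitis and primary biliary cirrhosis that develops by itself in dnTGFβRII Aire-/- mice, so TG is read here as the dnTGFβRII transgene. The comparison asks how the diseased liver differs once its CD8+ T cells are removed.

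All 6 liver libraries came from C57BL/6 mice and belonged to the second batch of the labels, and each was labelled with the same age range of 2 to 4 weeks. The 2 untreated TG Aire-/- livers and the 2 depleted livers share both the transgene and the loss of Aire, and the Aire+/+ livers carry neither according to their genotype label. The labels describe the treated pair only as depleted of CD8+ T cells; they name no agent, dose or time of treatment. Whole liver was sequenced, from total liver cells. Libraries followed Illumina or BGI protocols, and which of them applied to which library is not given. The labels do not say that the replicates were separate animals, and the p-values then measure only the spread between these libraries, part of which may be technical.

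Aire lets epithelial cells of the thymic medulla display proteins of other tissues, which removes T cells that react with them. The dnTGFβRII transgene expresses in T cells a truncated TGF-β receptor of type II, which weakens a signal that restrains them. CD8+ T cells recognise peptides on MHC class I, kill with perforin and granzymes, and release interferon-γ. In liver, interferon-γ acts on hepatocytes, macrophages and endothelium and raises MHC genes, guanylate-binding proteins, immunity-related GTPases and the chemokines that draw more T cells.

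Values are RPKM, a read count divided by gene length and by the mapped reads of its library, and pairs of values are given in the order replicate 1 and replicate 2. A log2 difference is the depleted mean minus the untreated TG Aire-/- mean of log2(RPKM + 1), which understates the change of low genes. Tests used limma over the 12231 of 24786 genes that reached 1 RPKM in at least 2 of the 6 livers, and a gene was called at a Benjamini-Hochberg adjusted p under 0.05. The inferred depth was 20300000 to 22700000 reads per liver library, and 9761 to 12441 genes reached 1 RPKM. Xist and Y-linked genes marked both depleted livers and replicate 1 of each other group as male and replicate 2 of the others as female. Replicates differed by a median of 0.391 (log2) per gene in TG Aire-/-, 0.349 in depleted and 0.159 in Aire+/+ livers. TG Aire-/- replicate 2 lay above replicate 1 in immediate early genes (a median of 1.28 on the log2 scale) and hypoxia genes (1.24), and depleted replicate 2 lay above replicate 1 in major urinary protein genes (4.17), neutrophil genes (1.55) and Kupffer cell genes (1.24).

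The depletion was visible in the CD8 genes themselves. Cd8a, the CD8 α chain (chromosome 6, 71373427 to 71379173 on GRCm38, GENCODE vM21), stood at 8.76 and 3.75 RPKM in the untreated TG Aire-/- livers. It was listed at 0 in depleted replicate 1 and at 0.187 in replicate 2 (log2 difference −2.64, SE 0.341, adjusted p = 0.00249), and at 0.161 and 0.22 in the Aire+/+ livers. Cd8b1, the β chain (chromosome 6, 71322788 to 71337494), went from 6.27 and 3.0 to 0 and 0.0342 RPKM (log2 difference −2.41, SE 0.296, adjusted p = 0.00221). For both chains the depleted libraries lay at or near the Aire+/+ level and apart from the untreated libraries. With either untreated TG Aire-/- library left out only 1 liver remained above 1 RPKM, so both chains dropped under the filter and were not tested. Cd4, the coreceptor of helper T cells, fell less, from 2.73 and 3.73 to 0.611 and 1.46 RPKM (log2 difference −1.08, SE 0.272, adjusted p = 0.0202). Tgfbr2, the receptor that the transgene opposes, stood at 12.5 and 23.9 RPKM without and 8.44 and 10.6 RPKM with depletion and was not called (log2 difference −0.81, SE 0.349, adjusted p = 0.102). Aire was listed at 0 in the Aire+/+ and depleted livers and reached 0.00471 and 0.301 RPKM in the untreated TG Aire-/- livers, too low to test, and a whole-gene value in liver does not check the genotype. Cd4 was not called without TG Aire-/- replicate 2 or depleted replicate 1, under median-ratio scaling or quantile normalization, or with sex as a covariate (limma adjusted p up to 0.257). Without TG Aire-/- replicate 1 Tgfbr2 was called (log2 −1.25, limma adjusted p = 0.0308).

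**Figure D1:**
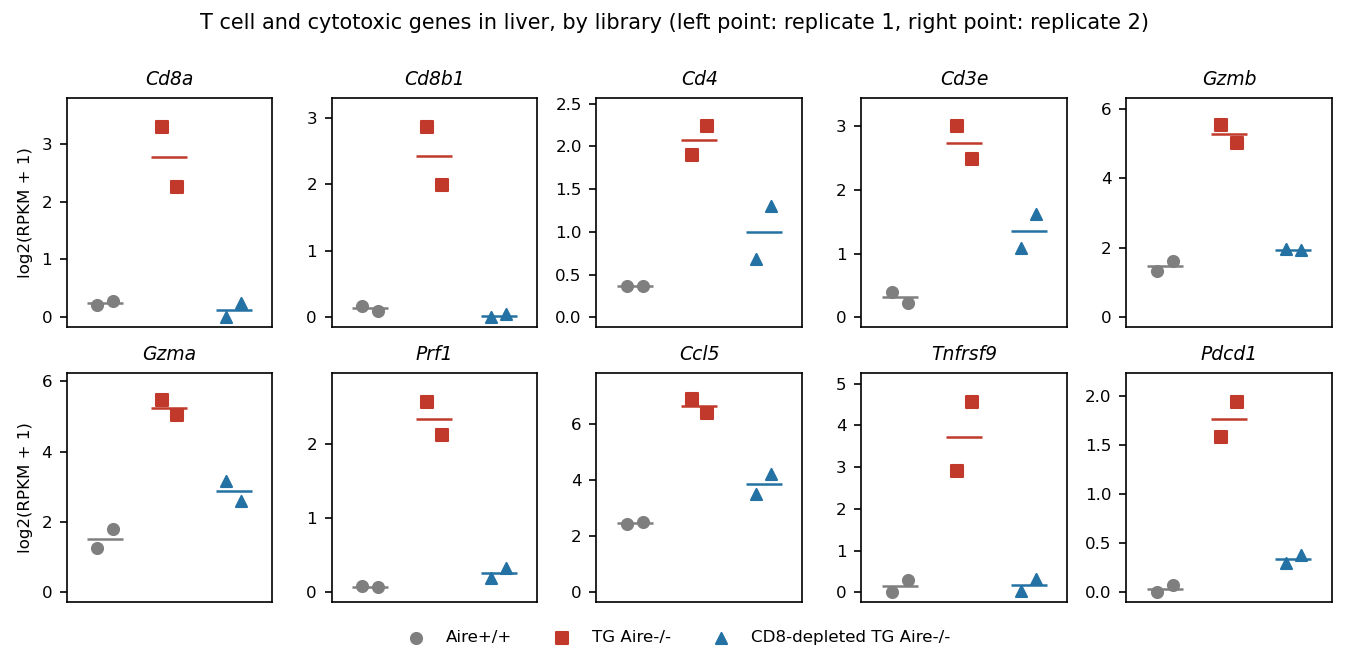
Levels of 10 T cell and cytotoxic genes as log2(RPKM + 1) (vertical axes), 1 point per library in Aire+/+ (grey circles), untreated TG Aire-/- (red squares) and CD8-depleted TG Aire-/- livers (blue triangles), with lines at the group means. The red squares lie above the blue triangles in each panel, and Cd8a of the depleted livers lies at 0 and 0.187 RPKM.

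Across all genes the depleted livers were lower far more often than higher. Of the genes tested 4097 were called lower (33.5%) and 549 higher (4.49%), and in each of the 4646 the depleted libraries did not overlap the untreated ones. By comparison 60.6% of all genes tested did not overlap with the depleted side lower and 10.1% with it higher. The median log2 difference over genes was −0.58. Falls of more than 2 on that scale numbered 850 and rises of that size 162. The imbalance depends on the scaling: after each library was scaled by its median ratio to the gene-wise geometric mean that median was −0.12, with 2001 genes lower (16.6%) and 923 higher (7.65%), and after quantile normalization 1405 were lower (11.5%) and 1217 higher (9.95%). Calls also rested on single libraries, with 1108 lower and 186 higher without TG Aire-/- replicate 2 and 1854 and 389 without depleted replicate 1. Without Aire+/+ replicate 1 and 2, 349 and 350 were higher. The Aire+/+ livers enter only the filter and the shared estimate of the spread, so the log2 differences themselves were unchanged there. Among the 4 male livers alone, with 1 residual degree of freedom, 228 were lower and 50 higher.

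The gene lists below stand against those shares, with the count under the median-ratio scaling and the counts that moved by over 1.5 times when 1 library was left out or sex was a covariate. A member is called filter-dependent where it reached 1 RPKM in fewer than 2 libraries other than the untreated TG Aire-/- ones. Such a gene was tested only because it was high there, so its fall was favoured in advance. Among the genes named in the text this holds for Cd8a, Cd8b1, Cd4, Prf1, Pdcd1, Tigit, Tnfrsf9, Foxp3, Cxcr6, Klrc1 and Il18rap. It also holds for Ccl4, Gpnmb, Mmp12, Ccr2, Tgfb3, Adm, Gata1, Msln and Cidec, and the p-values of all these genes are descriptions. Among all genes 1636 were filter-dependent and 1205 of them fell, and without them 2892 of 10595 fell (27.3%, median −0.49). Counts without such members are given beside the full ones, and the full counts and medians are descriptions. In the same way 172 genes passed the filter only through the depleted livers, which favoured a rise, and 35 of them rose. Without these genes 514 of 12059 rose. A gene above 1 RPKM in only 1 of the groups drops under the filter when either of its libraries is left out, so part of those lower counts are genes no longer tested. In a bulk sample fewer cells of a type and less RNA per cell cannot be told apart.

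**Figure D2:**
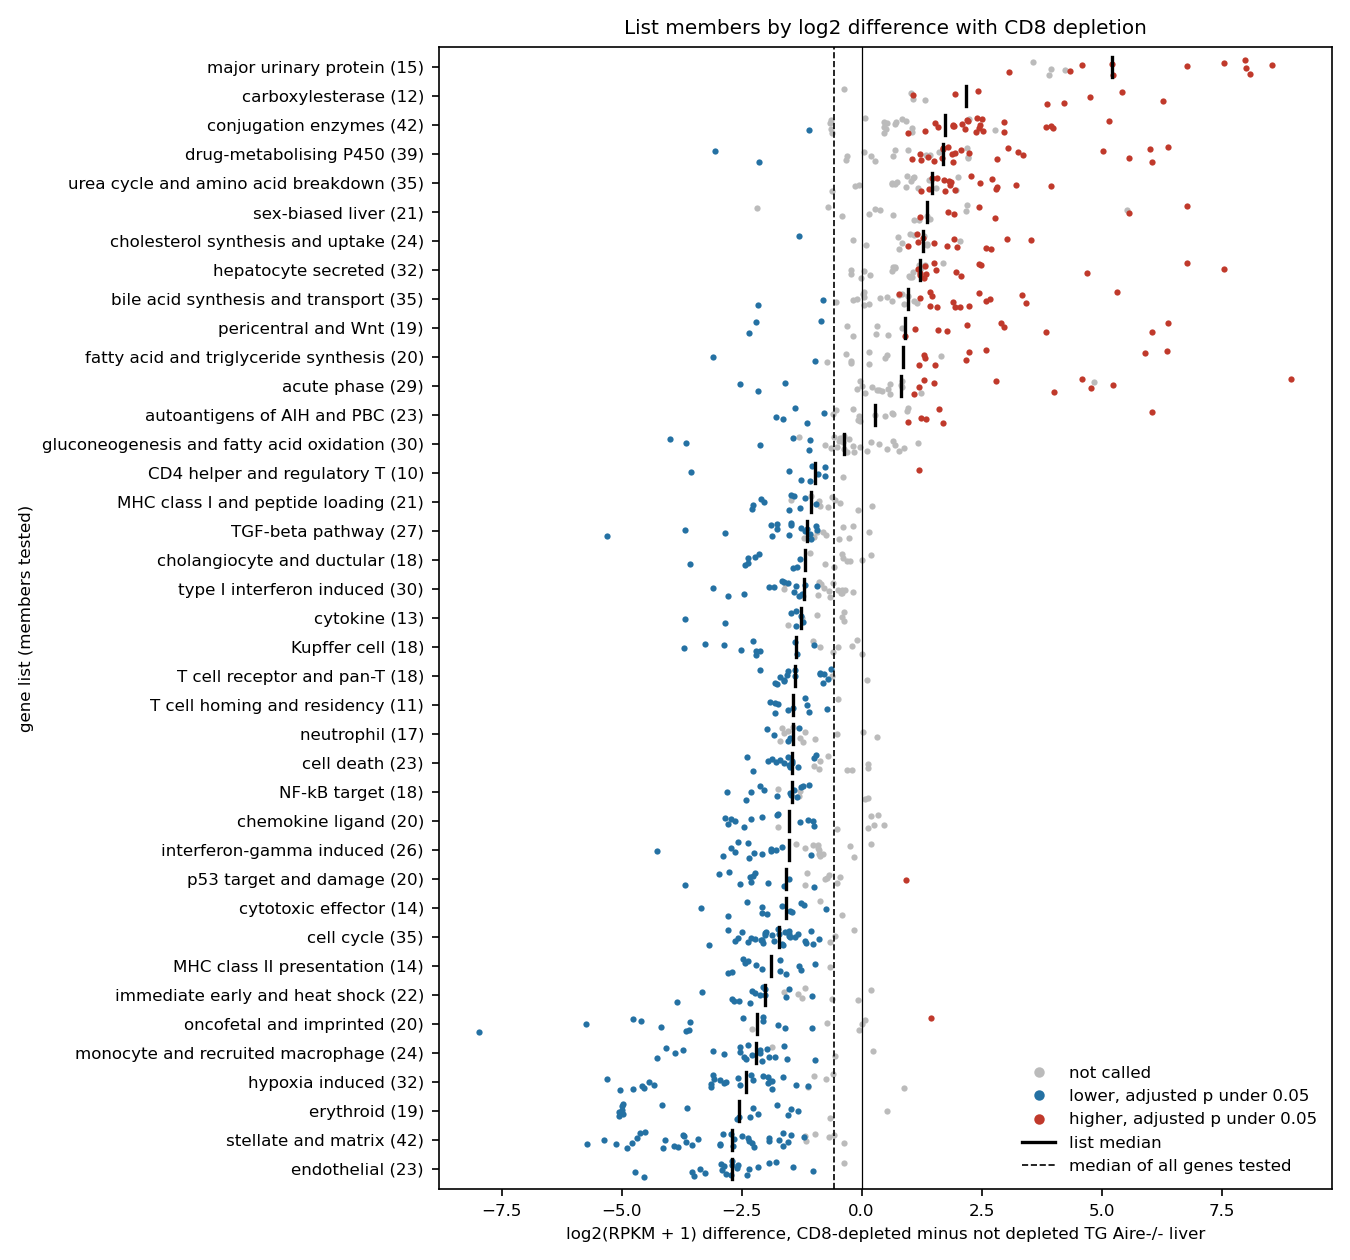
Each point is a member of a gene list with at least 10 members tested, placed by its log2(RPKM + 1) difference, depleted minus untreated TG Aire-/- liver (horizontal axis), with called members in blue (lower) or red (higher). Black bars are list medians, from −2.70 for the endothelial and the stellate and matrix lists to 5.22 for major urinary proteins, of which 13 of 15 passed the filter only through the depleted livers, and the dashed line marks the median of all genes, −0.58.

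T cell genes fell well beyond the CD8 chains. Of 18 tested members of the T cell receptor and pan-T list 16 fell (median −1.39; 8 of 14 under median-ratio scaling; 7 of 9 without filter-dependent members, median −1.56), and the count was 8 without TG Aire-/- replicate 1 or depleted replicate 1 and 7 without TG Aire-/- replicate 2. Cd3e, a signalling chain of the T cell receptor, went from 6.96 and 4.6 to 1.13 and 2.06 RPKM (log2 difference −1.39, SE 0.289, adjusted p = 0.0109), with 0.323 and 0.17 in Aire+/+. Thy1, a surface protein of T cells and fibroblasts, fell from 15.9 and 7.54 to 1.22 and 2.43 (log2 difference −2.12, SE 0.378, adjusted p = 0.00665). Lck, the kinase that starts receptor signalling, fell from 8.15 and 5.15 to 1.24 and 1.65 RPKM (log2 −1.62). In these 3 genes both depleted livers lay above both Aire+/+ livers, a difference that limma did not call (adjusted p = 0.236 for Cd3e, 0.487 for Thy1 and 0.299 for Lck). Cd3e of 2.06 RPKM beside Cd8a of 0.187 RPKM in depleted replicate 2 shows T cell transcripts with little CD8 transcript. Cd3e was not called without depleted replicate 1, or under quantile normalization (limma adjusted p up to 0.144). Lck was not called under quantile normalization (limma adjusted p up to 0.0708).

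Killing genes were lower too. Of 14 tested members of the cytotoxic effector list 12 fell (median −1.57; 8 of 13 under median-ratio scaling; 5 without TG Aire-/- replicate 1, 4 without TG Aire-/- replicate 2 and 7 without depleted replicate 1; 5 of 6 without filter-dependent members, median −2.22). Gzmb, a granule protease that triggers apoptosis (chromosome 14, 56258838 to 56262260), went from 45.6 and 31.4 to 2.88 and 2.81 RPKM (log2 difference −3.34, SE 0.281, adjusted p = 0.00153), against 1.5 and 2.05 in Aire+/+. Gzma, a second granule protease, fell from 43.3 and 32 to 7.95 and 5.04 (log2 difference −2.38, SE 0.328, adjusted p = 0.003). Prf1, the pore-forming perforin, was filter-dependent and went from 4.9 and 3.32 to 0.14 and 0.257 (log2 difference −2.08, SE 0.229, adjusted p = 0.00204). Ccl5, a chemokine stored by effector T cells, fell from 117 and 83.1 to 10.3 and 17.4 (log2 difference −2.79, SE 0.325, adjusted p = 0.00219). The 2 untreated libraries exceeded the 2 depleted ones in all 4 genes. Ifng was under the filter, with 2.66 and 0.988 RPKM in the untreated and 0.149 and 0.679 in the depleted livers, and was not tested. Of the 16 members of the NK cell list 3 were expressed enough to test. Of these Klrc1 and Il18rap were filter-dependent, so no count is given for the list. Ncr1, which marks NK cells, stood at 0.50 and 0.307 against 0.213 and 0.494 RPKM, under the filter in every library.

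Receptors of chronically stimulated T cells were lower as well. Of 9 tested members of the inhibitory receptor list 7 fell (median −1.42; 6 of 8 under median-ratio scaling; 3 without TG Aire-/- replicate 1 and 2 without TG Aire-/- replicate 2; 2 of 3 without filter-dependent members). Pdcd1, the PD-1 checkpoint, went from 2.01 and 2.83 to 0.234 and 0.30 RPKM (log2 difference −1.42, SE 0.21, adjusted p = 0.00368). Tigit, another checkpoint, went from 5.64 and 4.78 to 0.862 and 1.62 (log2 difference −1.49, SE 0.251, adjusted p = 0.00566). Tnfrsf9, the costimulatory receptor 4-1BB, showed the largest fall of the helper and regulatory list, from 6.48 and 22.5 to 0.0204 and 0.24 RPKM (log2 difference −3.56, SE 0.487, adjusted p = 0.00292). Of that list 8 of 10 fell and 1 rose (3 of 8 fell under median-ratio scaling; 5 without Aire+/+ replicate 2, 1 without TG Aire-/- replicate 1, 0 without TG Aire-/- replicate 2, 2 without depleted replicate 1 and 3 with sex as a covariate falling), and all but 1 of the 10 were filter-dependent. Foxp3, the factor that defines regulatory T cells, stood at 1.66 and 1.48 without and 0.677 and 1.3 with depletion (log2 difference −0.39, SE 0.239, adjusted p = 0.227); the depleted libraries lay on the lower side and were not called. Of 11 homing and residency genes 10 fell (4 of 10 under median-ratio scaling; 3 without TG Aire-/- replicate 2, 4 without depleted replicate 1 and 4 with sex as a covariate; 6 of 6 without filter-dependent members, median −1.64), among them Cxcr6, which holds T cells in liver sinusoids, from 2.64 and 2.89 to 0.595 and 0.948 RPKM (log2 −1.1). Tigit and Cxcr6 were not called under quantile normalization (limma adjusted p up to 0.173).

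The sorted TG Aire-/- liver CD8+ T cells held 172 RPKM of Cd8a, 493 of Gzmb and 3614 of Ccl5, so these transcripts were abundant there. Of the 4097 genes called lower in liver 26.9% were below 1 RPKM in the sorted cells and 44.2% were at 10 RPKM or more. Among all genes tested these shares were 23.7% and 38.7%. The largest falls and the rises held more genes that were low in those cells. Of the 200 genes with the largest falls 55.5% were below 1 RPKM there and 23.5% were at 10 RPKM or more. Of the 549 genes that rose 71.9% were below 1 RPKM there. By level in the sorted cells, 38.1% of genes below 1 RPKM, 25.7% of those between 1 and 10 and 38.2% of those at 10 or more were called lower in liver. The sorted library is 1 sample, and it held 179 RPKM of the haemoglobin gene Hba-a1, which T cells do not make, so a level there need not come from T cells.

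**Figure D3:**
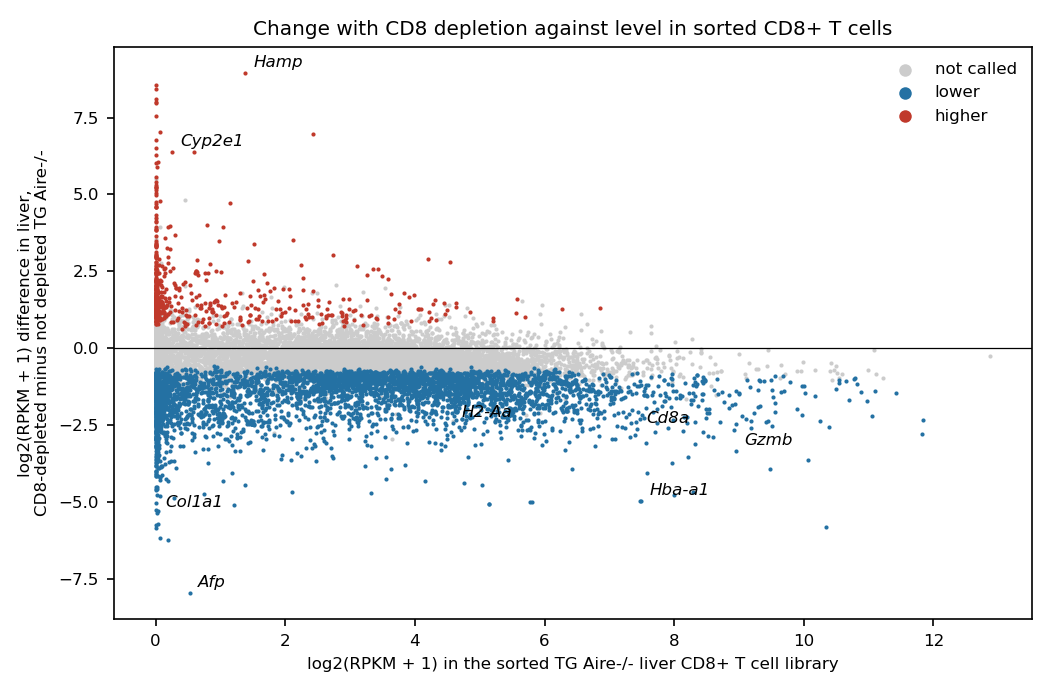
Each point is a gene tested, by its log2(RPKM + 1) in 1 library of CD8+ T cells sorted from TG Aire-/- liver (horizontal axis) and its log2(RPKM + 1) difference in liver, depleted minus untreated TG Aire-/- (vertical axis), with called genes in blue (lower) or red (higher). Cd8a and Gzmb fell and lie to the right, while Afp and Col1a1, among the largest falls, lie at the left edge.

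Interferon-γ response genes were called lower in part. Of the 26 tested 25 had a lower estimate. In 22 of them the depleted libraries lay below the untreated ones without overlap, against 60.6% of all genes tested. Whether called and uncalled members differ was not tested. Of 26 tested members of the list 14 fell and none rose (median −1.52; 11 fell under median-ratio scaling; between 10 and 19 with any 1 library left out; 12 of 24 without filter-dependent members, median −1.28). Gbp2, a guanylate-binding protein (chromosome 3, 142620602 to 142638008), went from 98.1 and 92.4 to 13 and 11.1 RPKM (log2 difference −2.89, SE 0.285, adjusted p = 0.0017). It stayed above the 1.88 and 3.28 of the Aire+/+ livers (log2 1.89, limma adjusted p = 0.0451). Cxcl10, a chemokine for CXCR3 on activated T cells (chromosome 5, 92346638 to 92348889), fell from 109 and 43.3 to 7.22 and 12.5 (log2 difference −2.73, SE 0.47, adjusted p = 0.00609). Cxcl9, a ligand of the same receptor, fell from 111 and 50.4 to 12.1 and 23.9 (log2 difference −2.07, SE 0.457, adjusted p = 0.0129). Irf1, the transcription factor that relays the interferon signal (chromosome 11, 53770014 to 53778374), went from 32.5 and 21.3 to 5.0 and 9.49 (log2 difference −1.79, SE 0.349, adjusted p = 0.00878), against 4.51 and 4.55 in Aire+/+. Ubd, the ubiquitin-like FAT10, showed the widest range, from 402 and 170.4 to 2.88 and 46.8 RPKM (log2 difference −4.27, SE 1.04, adjusted p = 0.0177); depleted replicate 2 kept far more of it than replicate 1. Cxcl9 was not called without TG Aire-/- replicate 1 or depleted replicate 1, or under median-ratio scaling (limma adjusted p up to 0.0697). Ubd was not called without TG Aire-/- replicate 1 or TG Aire-/- replicate 2, or without the filter on low values (limma adjusted p up to 0.0981).

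The immunity-related GTPases, which coat the vacuoles of intracellular microbes, were among the genes not called. Igtp (chromosome 11, 58199556 to 58207591) stood at 182 and 104 RPKM without and 63.8 and 96.4 with depletion (log2 difference −0.80, SE 0.426, adjusted p = 0.17). Irgm2 (chromosome 11, 58199618 to 58222782) stood at 50.8 and 39.5 and 36.5 and 39.3 (log2 difference −0.24, SE 0.324, adjusted p = 0.579). Iigp1 stood at 236 and 166 and 198 and 259.9 (log2 difference 0.19, SE 0.341, adjusted p = 0.669). The groups overlapped in Iigp1, and in Igtp and Irgm2 the depleted libraries lay below the untreated ones without being called. Tgtp1 (chromosome 11, 48985327 to 48994172) stood at 229 and 192 and 92.7 and 139 (log2 difference −0.88, SE 0.433, adjusted p = 0.143), still above the 7.29 and 18 of Aire+/+ (log2 3.19, limma adjusted p = 0.0296). Tgtp1 and Tgtp2 are near-identical copies, and their reads may have been divided between them.

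The promoters of 3 genes of the list that fell and 3 GTPase genes that were not called are shown because both sets hold letters that interferon-activated factors are known to bind. They are the 250 bases before the RefSeq start of each gene on GRCm38.p6, 5′ to 3′ on the gene's strand. Capitals mark TTCNNNGAA, the core of the GAS element of interferon-γ response genes, and TTTC, any 2 bases and TTTC again, an ISRE-like element bound by IRF factors, both searched on both strands, with bases shared by overlapping matches marked once.
Gbp2 (chr3:142620413-142620662, plus strand): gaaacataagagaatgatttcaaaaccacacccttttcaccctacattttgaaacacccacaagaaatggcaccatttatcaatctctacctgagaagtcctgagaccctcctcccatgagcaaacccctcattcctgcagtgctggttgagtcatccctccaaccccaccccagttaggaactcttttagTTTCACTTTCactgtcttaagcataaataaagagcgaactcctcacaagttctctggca
Cxcl10 (chr5:92348890-92349139, minus strand): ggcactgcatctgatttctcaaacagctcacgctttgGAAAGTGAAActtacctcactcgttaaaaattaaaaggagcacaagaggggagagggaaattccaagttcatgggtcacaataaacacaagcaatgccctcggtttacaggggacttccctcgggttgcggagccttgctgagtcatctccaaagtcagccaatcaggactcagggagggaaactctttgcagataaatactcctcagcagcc
Irf1 (chr11:53769764-53770013, plus strand): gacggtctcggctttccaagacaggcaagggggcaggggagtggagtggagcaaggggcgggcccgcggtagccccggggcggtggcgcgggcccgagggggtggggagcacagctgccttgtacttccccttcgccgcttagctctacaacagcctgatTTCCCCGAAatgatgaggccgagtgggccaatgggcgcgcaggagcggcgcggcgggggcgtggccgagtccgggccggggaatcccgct
Igtp (chr11:58199306-58199555, plus strand): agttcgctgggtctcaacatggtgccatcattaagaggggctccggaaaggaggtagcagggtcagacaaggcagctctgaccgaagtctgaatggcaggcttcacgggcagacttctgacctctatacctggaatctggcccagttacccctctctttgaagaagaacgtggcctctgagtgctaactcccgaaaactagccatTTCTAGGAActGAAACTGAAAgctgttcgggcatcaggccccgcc
Irgm2 (chr11:58214727-58214976, plus strand): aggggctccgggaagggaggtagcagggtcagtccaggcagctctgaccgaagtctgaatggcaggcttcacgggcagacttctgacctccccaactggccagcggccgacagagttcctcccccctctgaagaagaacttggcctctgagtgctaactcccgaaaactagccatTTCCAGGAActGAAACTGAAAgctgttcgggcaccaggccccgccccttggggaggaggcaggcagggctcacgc
Tgtp1 (chr11:48992247-48992496, minus strand): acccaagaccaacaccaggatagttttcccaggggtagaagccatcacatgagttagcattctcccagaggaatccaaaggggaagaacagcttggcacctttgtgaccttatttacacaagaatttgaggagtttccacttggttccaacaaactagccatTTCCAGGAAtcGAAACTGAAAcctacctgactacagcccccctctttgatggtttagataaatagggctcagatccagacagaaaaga

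Gbp2 and Cxcl10 hold an ISRE-like match, 59 and 213 bases before the start, Irf1 holds a GAS match 90 bases before it, and Igtp, Irgm2 and Tgtp1 hold both. Of 17 promoters found for the 28 members of the list 8 hold a GAS match (47.1%) and 11 an ISRE-like match (64.7%), against 7.02% and 2.98% of the 32851 promoters in the table. The list was compiled from known interferon targets, so these shares describe it and test nothing. Called and uncalled members both carry such letters, and a match is not shown to be a bound site. Among members that fell but are not shown, Gbp5 holds both elements and Cxcl9 and Ubd hold neither.

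**Figure D4:**
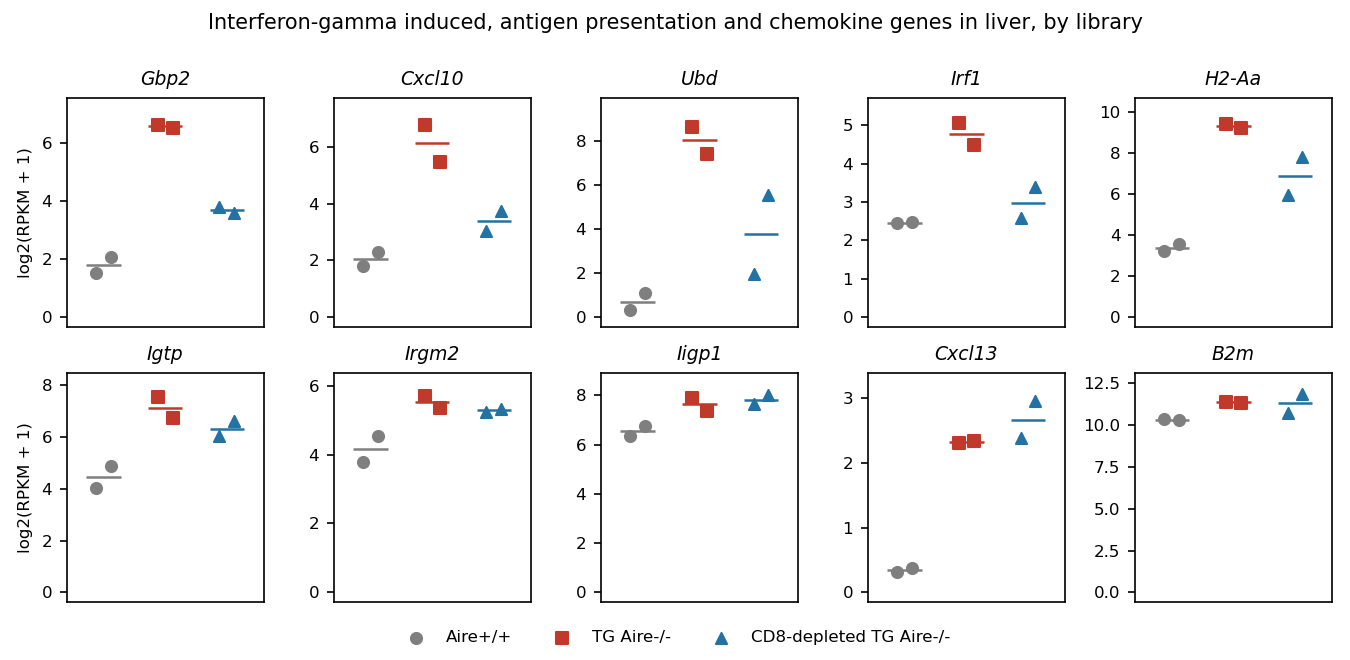
Levels of 10 interferon, antigen presentation and chemokine genes as log2(RPKM + 1) (vertical axes), 1 point per library, left replicate 1 and right replicate 2, coloured by group with lines at the group means. In the panels of Gbp2, Cxcl10, Ubd, Irf1 and H2-Aa the depleted livers lie below the untreated TG Aire-/- livers, and in those of Irgm2, Iigp1, Cxcl13 and B2m they lie at a similar height.

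Antigen presentation genes fell, nearly all of those tested on the class II side and a part on the class I side. Of 14 tested MHC class II genes 13 fell (median −1.89; 7 of 13 under median-ratio scaling; 4 without TG Aire-/- replicate 1 and 2 without TG Aire-/- replicate 2; 10 of 10 without filter-dependent members, median −2.29). H2-Aa, a class II α chain, went from 677 and 585 to 60.5 and 218 RPKM (log2 difference −2.44, SE 0.553, adjusted p = 0.0141), against 8.31 and 10.9 in Aire+/+. H2-Ab1, its β partner, went from 503 and 389 to 60.1 and 179.5 (log2 difference −2.08, SE 0.491, adjusted p = 0.0162) and stayed above the 6.51 and 7.52 of Aire+/+ (log2 3.71, limma adjusted p = 0.0282). Both genes were lower than in the untreated livers, and both depleted livers stayed above the Aire+/+ livers. Of 21 class I and peptide loading genes 10 fell (median −1.06; 5 under median-ratio scaling; 6 without TG Aire-/- replicate 1 and 5 without TG Aire-/- replicate 2 or depleted replicate 1). Tap1, which pumps peptides into the endoplasmic reticulum, fell from 70.5 and 65.5 to 14.2 and 17.9 (log2 difference −2.02, SE 0.264, adjusted p = 0.00257). B2m, the light chain of every class I molecule, stood at 2668 and 2611 without and 1699 and 3711 with depletion (log2 difference −0.07, SE 0.499, adjusted p = 0.916), and the depleted values lay on both sides of the untreated ones. The difference between the class II and class I lists was not tested. H2-Aa was not called without TG Aire-/- replicate 1 or TG Aire-/- replicate 2 (limma adjusted p up to 0.0822). H2-Ab1 was not called without TG Aire-/- replicate 1 or TG Aire-/- replicate 2, under median-ratio scaling, or without the filter on low values (limma adjusted p up to 0.0776).

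Type I interferon genes were lower in part, by a count that depended on the scaling. Among all genes tested 33.5% fell, and 16.6% under median-ratio scaling. Under that scaling the share of this list was near the share of all genes. Of 30 tested 14 fell (median −1.19; 5 under median-ratio scaling; 6 without Aire+/+ replicate 1, 7 without Aire+/+ replicate 2, 5 without TG Aire-/- replicate 1 or TG Aire-/- replicate 2, 3 without depleted replicate 1, 22 without depleted replicate 2 and 6 with sex as a covariate; 13 of 28 without filter-dependent members, median −1.23). Ifit2, an antiviral RNA-binding protein, went from 18.1 and 19.7 to 0.882 and 1.89 RPKM (log2 difference −3.09, SE 0.283, adjusted p = 0.00153). Isg15, a ubiquitin-like modifier, fell from 75.2 and 22.5 to 3.45 and 7.42 (log2 difference −2.79, SE 0.562, adjusted p = 0.00964). Chemokine ligands fell in 13 of 20 (7 under median-ratio scaling, where 1 rose; 7 without TG Aire-/- replicate 1 or TG Aire-/- replicate 2 and 8 without depleted replicate 1; 8 of 13 without filter-dependent members, median −1.01), among them Cxcl16, the ligand of Cxcr6, from 28.5 and 37.5 to 2.72 and 6.94 (log2 −2.63), and Ccl4, from 11.8 and 11 to 0.137 and 1.57 (log2 −2.86). Cxcl13, the chemokine of B cell follicles, stood at 3.96 and 4.04 in the untreated and 4.24 and 6.74 in the depleted livers (log2 difference 0.35, SE 0.267, adjusted p = 0.322). It was above the 0.239 and 0.296 of Aire+/+ in each of the 4 TG Aire-/- libraries, with a depleted minus Aire+/+ difference of 2.33 on the log2 scale (limma adjusted p = 0.0184). NF-κB target genes fell in 13 of 18 (5 under median-ratio scaling; 3 without TG Aire-/- replicate 2 or depleted replicate 1 and 4 with sex as a covariate; 11 of 15 without filter-dependent members, median −1.34), including Vcam1, an adhesion molecule for lymphocytes, from 94.5 and 127 to 14.6 and 15.1 (log2 −2.8). Isg15 was not called without depleted replicate 1 (limma adjusted p up to 0.0601). Under median-ratio scaling Cxcl13 was called (log2 0.80, limma adjusted p = 0.042). Under quantile normalization Cxcl13 was called (log2 1.06, limma adjusted p = 0.0189).

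B cell and plasma cell genes did not share 1 direction. Of 7 tested B cell genes 4 fell (1 of 8 under median-ratio scaling; 2 without Aire+/+ replicate 1 or Aire+/+ replicate 2, 0 without TG Aire-/- replicate 1, 1 without TG Aire-/- replicate 2 or depleted replicate 1 and 2 with sex as a covariate; 2 of 5 without filter-dependent members, median −0.88), among them Cd37, a tetraspanin of B cells, from 8.1 and 8.22 to 1.73 and 3.99 RPKM (log2 −1.31). Jchain, which joins IgA and IgM into polymers, rose from 0.353 and 0.878 to 10.1 and 27.8 (log2 difference 3.49, SE 0.442, adjusted p = 0.00233) and also exceeded Aire+/+, at 0.508 and 0.307 (log2 3.67, limma adjusted p = 0.0202). It was the 1 called gene of 8 tested plasma cell genes, and with either depleted library left out it dropped under the filter. Jchain passed the filter only through the depleted livers, so its rise was favoured in advance. Of the 5 plasma cell genes that passed otherwise 0 rose. Pigr, the receptor that carries such polymers across epithelium, was chosen after its values were seen and stood at 16 and 20.1 in Aire+/+, 115 and 73.3 in untreated and 296 and 217 in depleted livers (log2 difference 1.46, SE 0.338, adjusted p = 0.0153). Cd37 was not called without TG Aire-/- replicate 1, TG Aire-/- replicate 2 or depleted replicate 1, under median-ratio scaling or quantile normalization, or without the filter on low values (limma adjusted p up to 0.13). Pigr was not called without TG Aire-/- replicate 2 or depleted replicate 1 (limma adjusted p up to 0.0878).

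Many macrophage genes were lower, while 3 genes that mark resident Kupffer cells overlapped between the groups. Of 24 monocyte and recruited macrophage genes 21 fell (median −2.20; 14 of 23 under median-ratio scaling; 12 without TG Aire-/- replicate 1, 4 without TG Aire-/- replicate 2 and 10 without depleted replicate 1; 13 of 15 without filter-dependent members, median −2.12). Gpnmb, made by lipid-laden macrophages, went from 8.39 and 43.5 to 0.0592 and 0.395 RPKM (log2 difference −4.07, SE 0.629, adjusted p = 0.0042). Mmp12, macrophage elastase, went from 5.78 and 61.8 to 0.0609 and 0.833 (log2 difference −3.89, SE 0.883, adjusted p = 0.0142). Ccr2, the chemokine receptor that brings monocytes to tissue, went from 5.61 and 15.3 to 0.998 and 3.39 (log2 difference −1.81, SE 0.503, adjusted p = 0.0273). In all 3 TG Aire-/- replicate 2 stood above replicate 1. Of 18 Kupffer cell genes 11 fell (median −1.36; 8 under median-ratio scaling; 5 without TG Aire-/- replicate 2). Marco, a scavenger receptor, fell from 269.9 and 175 to 8.35 and 29.4 (log2 difference −3.69, SE 0.535, adjusted p = 0.00348), against 9.12 and 7.07 in Aire+/+. C1qa, the complement subunit made by macrophages, fell from 319.7 and 210.1 to 20.3 and 59 (log2 difference −2.86, SE 0.527, adjusted p = 0.0074). Clec4f, which in mouse is restricted to Kupffer cells, stood at 73.6 and 31.3 without and 25.1 and 80.2 with depletion (log2 difference −0.09, SE 0.582, adjusted p = 0.905), with the groups overlapping, and at 37.8 and 38.2 in Aire+/+. Timd4 and Vsig4, further Kupffer cell markers, overlapped too, at 21.4 and 11 against 4.38 and 11.4 (log2 difference −1.01, SE 0.455, adjusted p = 0.114) and at 53.9 and 45.5 against 24 and 51 (log2 difference −0.49, SE 0.375, adjusted p = 0.324). Marco and C1qa are made by other macrophages as well, and 1 of the 11, Cdh5, is an endothelial gene. The difference between the macrophage lists was not tested. Mmp12 was not called without depleted replicate 1, or without the filter on low values (limma adjusted p up to 0.0843). Ccr2 was not called without TG Aire-/- replicate 2 or depleted replicate 1, under median-ratio scaling or quantile normalization, without the filter on low values, or with sex as a covariate (limma adjusted p up to 0.156). Without depleted replicate 2 Timd4 was called (log2 −1.61, limma adjusted p = 0.0293). Without depleted replicate 2 Vsig4 was called (log2 −1.02, limma adjusted p = 0.0355).

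Neutrophil and dendritic cell genes gave counts that shifted with single libraries. Of 17 neutrophil genes 5 fell (median −1.43; 1 under median-ratio scaling; 4 of 12 without filter-dependent members, median −1.48), and the count was 3 without Aire+/+ replicate 1 or Aire+/+ replicate 2, 0 without TG Aire-/- replicate 2, 1 without depleted replicate 1, 14 without depleted replicate 2 and 1 with sex as a covariate. S100a8, a calcium-binding protein of neutrophils, stood at 152 and 244 without and 41.2 and 148 with depletion (log2 difference −1.29, SE 0.577, adjusted p = 0.112). Lcn2, an iron-sequestering protein that hepatocytes also secrete, stood at 215 and 586 and 82.8 and 2346, with depleted replicate 2 the highest of the 4. Of 7 tested dendritic cell genes 4 fell (2 of 6 under median-ratio scaling; 2 without Aire+/+ replicate 1 or Aire+/+ replicate 2 or TG Aire-/- replicate 1 or TG Aire-/- replicate 2 or depleted replicate 1 and 2 with sex as a covariate; 2 of 3 without filter-dependent members), including Irf8, a factor of dendritic cells and macrophages, from 33.5 and 33 to 2.56 and 5.57 RPKM (log2 −2.82). Without depleted replicate 2 S100a8 was called (log2 −2.2, limma adjusted p = 0.0107).

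Fibrous tissue and vessel genes fell in most of the members tested. Of 42 stellate cell and matrix genes 36 fell (median −2.70; 32 under median-ratio scaling; 26 to 37 with any 1 library left out; 31 of 37 without filter-dependent members, median −2.71). Col1a1, the main chain of fibrillar collagen (chromosome 11, 94936224 to 94953042), went from 98.6 and 124 to 0.428 and 4.08 RPKM (log2 difference −5.38, SE 0.59, adjusted p = 0.00204). Acta2, the smooth muscle actin of activated stellate cells, went from 50.9 and 33.5 to 0.228 and 0.676 (log2 difference −4.88, SE 0.312, adjusted p = 0.000619). Tagln, an actin-binding protein of the same cells, fell from 82.9 and 99 to 2.23 and 2.91 (log2 difference −4.69, SE 0.28, adjusted p = 0.000559). The Aire+/+ livers lay between, with 6.39 and 13.4 of Col1a1, 1.59 and 2.17 of Acta2 and 4.66 and 6.7 of Tagln, and limma did not call the depleted livers lower than Aire+/+ in these 3 genes (adjusted p = 0.276, 0.287 and 0.287). Eln, elastin, was called lower than in Aire+/+, at 0.244 and 1.35 against 10.8 and 16.2 (log2 −3.06, limma adjusted p = 0.0409). Of 23 endothelial genes 22 fell (median −2.70; 21 under median-ratio scaling; 15 to 22 with any 1 library left out; 16 of 17 without filter-dependent members, median −2.7). Pecam1, an endothelial junction protein, went from 29.2 and 83.1 to 3.09 and 3.65 (log2 difference −3.53, SE 0.451, adjusted p = 0.00237), with 3.03 and 2.87 in Aire+/+, and the sinusoid receptor Lyve1 went from 35.9 and 103 to 5.94 and 3.4 (log2 −3.48). The mesothelial gene Msln fell from 8.29 and 9.51 to 0.0833 and 0.111 (log2 −3.17), and the adipocyte gene Fabp4, also made by endothelium and macrophages, fell from 257 and 604 to 2.72 and 6.27 RPKM (log2 difference −6.25, SE 0.499, adjusted p = 0.00142), while Adipoq, which only adipocytes make, was listed at 0 in each of the 4 libraries. Markers of vessels, fibroblasts and mesothelium thus moved together with the immune lists, and the part of tissue sampling in the immune changes was not tested.

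TGF-β ligands were among the genes that fell. Of 27 tested members of the TGF-β pathway list 17 fell (median −1.13; 9 under median-ratio scaling; 11 without Aire+/+ replicate 1 or Aire+/+ replicate 2, 5 without TG Aire-/- replicate 2, 9 without depleted replicate 1 and 10 with sex as a covariate; 13 of 23 without filter-dependent members, median −1.08). Tgfb1, the ligand that immune cells make, went from 38.1 and 44.3 to 2.98 and 7.57 RPKM (log2 difference −2.85, SE 0.378, adjusted p = 0.0027), against 5.65 and 4.76 in Aire+/+. Tgfb3 went from 9.8 and 21.7 to 0.293 and 0.16 (log2 difference −3.68, SE 0.355, adjusted p = 0.00163). Cholangiocyte and ductular genes fell in 9 of 18 (median −1.18; 5 under median-ratio scaling; 3 without TG Aire-/- replicate 2; 8 of 14 without filter-dependent members, median −1.39). Krt19, a keratin of bile duct cells, went from 4.13 and 20.3 to 0.40 and 1.94 (log2 difference −2.36, SE 0.642, adjusted p = 0.0254), and Cd24a, a surface protein of ductular and immature cells, from 42.6 and 53 to 1.39 and 5.98 (log2 −3.57). Krt19 was not called without TG Aire-/- replicate 2 or depleted replicate 1, under median-ratio scaling or quantile normalization, without the filter on low values, or with sex as a covariate (limma adjusted p up to 0.14).

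Cell death and stress genes were lower in the depleted livers. Of 23 cell death genes 15 fell (median −1.44; 7 under median-ratio scaling; 9 without Aire+/+ replicate 1 or Aire+/+ replicate 2, 2 without TG Aire-/- replicate 2, 6 without depleted replicate 1 and 7 with sex as a covariate; 10 of 17 without filter-dependent members, median −0.98), with Bax, which permeabilises mitochondria, going from 54.1 and 47.9 to 9.02 and 16.9 RPKM (log2 −1.95). Fas, the death receptor, stood at 9.34 and 7.83 and 5.18 and 10.3 (log2 difference −0.19, SE 0.332, adjusted p = 0.662), with the groups overlapping. Of 20 p53 targets 12 fell and the kinase Plk3 rose, from 20.3 and 18.7 to 48.1 and 30.2 RPKM (log2 0.93; list median −1.57; 9 of 19 under median-ratio scaling; 4 without TG Aire-/- replicate 2 and 6 without depleted replicate 1; 9 of 15 without filter-dependent members, median −1.95). Cdkn1a, the cell cycle inhibitor p21, went from 45.9 and 108 to 4.5 and 4.69 (log2 difference −3.68, SE 0.409, adjusted p = 0.0021), under the 40.7 and 30.8 of Aire+/+ as well (log2 −2.7, limma adjusted p = 0.0451). Of 22 immediate early and heat shock genes 15 fell (8 under median-ratio scaling; 5 without TG Aire-/- replicate 2 or depleted replicate 1 and 8 with sex as a covariate; 12 of 19 without filter-dependent members, median −1.61), and Fos went from 6.18 and 65.3 to 0.837 and 1.6 (log2 −3.32). A list of 32 hypoxia-induced genes was added after their values were seen: 27 fell (median −2.42; 25 under median-ratio scaling; 18 of 23 without filter-dependent members, median −2.06), among them the vasodilator peptide Adm, from 27.7 and 119 to 0.651 and 0.947 (log2 difference −5.03, SE 0.587, adjusted p = 0.00219). TG Aire-/- replicate 2 was the highest of the 4 livers in Fos and Adm, and both genes were lower in the depleted livers than in TG Aire-/- replicate 1 as well. Plk3 was not called without Aire+/+ replicate 1, Aire+/+ replicate 2, TG Aire-/- replicate 1, TG Aire-/- replicate 2 or depleted replicate 1, without the filter on low values, in the 4 TG Aire-/- libraries alone, with sex as a covariate, or with array weights (limma adjusted p up to 0.177). Fos was not called without depleted replicate 1 or depleted replicate 2, under quantile normalization, or without the filter on low values (limma adjusted p up to 0.112).

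Proliferation and red cell genes fell together. Of 35 cell cycle genes 32 fell (median −1.72; 22 of 33 under median-ratio scaling; 19 without TG Aire-/- replicate 1 or depleted replicate 1; 23 of 26 without filter-dependent members, median −1.84). Mki67, present only in cycling cells, went from 14 and 8.6 to 0.376 and 1.96 RPKM (log2 difference −2.57, SE 0.424, adjusted p = 0.00521), against 0.924 and 1.78 in Aire+/+. Of 19 erythroid genes 17 fell (median −2.55; 17 under median-ratio scaling; 8 without TG Aire-/- replicate 1 and 7 without TG Aire-/- replicate 2; 8 of 10 without filter-dependent members, median −4.96). Hba-a1, an adult haemoglobin chain whose reads cannot be told from Hba-a2, went from 9622 and 5038 to 145 and 341 (log2 difference −4.96, SE 0.536, adjusted p = 0.00196), against 605 and 583 in Aire+/+. Gata1, a transcription factor of red cell precursors, went from 4.28 and 4.06 to 0 and 0.0767 (log2 −2.32). Red cell precursors populate the liver early in life, and the age of each liver within its range is not given.

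Many hepatocyte detoxification genes rose. Of 39 tested cytochrome P450 genes 23 rose and 2 fell (median 1.69; 24 and 2 of 40 under median-ratio scaling; 12 without TG Aire-/- replicate 2 and 13 with sex as a covariate rising), against 4.49% of all genes rising. Cyp2e1, which oxidises ethanol and acetaminophen (chromosome 7, 140763739 to 140774987), went from 30.6 and 24.6 to 3411 and 1640.2 RPKM (log2 difference 6.38, SE 0.439, adjusted p = 0.000876), against 3536 and 3659.9 in Aire+/+. Cyp1a2, a caffeine-oxidising enzyme and a liver autoantigen, went from 1.74 and 0.128 to 76.5 and 174 (log2 difference 6.05, SE 0.512, adjusted p = 0.00153), against 218 and 235. Cyp2c29 rose from 19.2 and 4.45 to 555 and 212 (log2 difference 5.04, SE 0.664, adjusted p = 0.00263). Reads of close Cyp relatives may be shared among them. Of 42 conjugation enzyme genes 23 rose and 1 fell (median 1.75; 27 and 0 under median-ratio scaling; 14 without TG Aire-/- replicate 2 rising). Ugt1a1, which conjugates bilirubin, rose from 50.1 and 56 to 387 and 219.8 (log2 difference 2.44, SE 0.354, adjusted p = 0.0035), and Gsta3, a glutathione transferase, rose from 39.95 and 41.3 to 301 and 346 (log2 2.96). Of 12 carboxylesterase genes, a list added after the values were seen, 8 rose (median 2.18), with Ces3a going from 2.24 and 1.2 to 96.1 and 443 (log2 6.28).

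Bile acid genes rose on both the synthesis and the transport side. Of 35 tested 16 rose and 2 fell (median 0.97; 20 and 1 of 36 under median-ratio scaling; 8 without TG Aire-/- replicate 2 rising). Cyp7a1, the rate-limiting enzyme of bile acid synthesis, went from 5.98 and 0.787 to 49.2 and 27.9 RPKM (log2 difference 3.43, SE 0.597, adjusted p = 0.00629), against 24.1 and 23.2 in Aire+/+. Slco1b2, a hepatocyte uptake carrier for bile acids and drugs, rose from 25.3 and 20.3 to 137 and 145 (log2 difference 2.59, SE 0.276, adjusted p = 0.00191). Abcb11, the pump that exports bile acids, rose from 17.8 and 6.5 to 26.8 and 44.3 (log2 difference 1.58, SE 0.459, adjusted p = 0.0316). Cyp8b1, which sets the share of cholic acid, stood at 73.6 and 20.6 and 33.4 and 39.8 (log2 difference −0.10, SE 0.528, adjusted p = 0.889). The rises thus took in uptake, export and the first step of synthesis, while this branch enzyme was not called. Abcb11 was not called without TG Aire-/- replicate 2, depleted replicate 1 or depleted replicate 2, without the filter on low values, or with sex as a covariate (limma adjusted p up to 0.153).

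Amino acid metabolism and secreted proteins followed the same direction. Of 35 urea cycle and amino acid breakdown genes 17 rose (median 1.47; 20 under median-ratio scaling; 4 without TG Aire-/- replicate 2, 6 without depleted replicate 1 and 8 with sex as a covariate). Prodh, which oxidises proline, went from 2.76 and 2.21 to 61.2 and 44.6 RPKM (log2 difference 3.94, SE 0.272, adjusted p = 0.000876), and Gnmt, which disposes of methyl groups, from 104 and 84.3 to 996 and 451 (log2 2.83). Cps1, the entry enzyme of the urea cycle, stood at 349 and 353 and 1148 and 295 (log2 difference 0.73, SE 0.604, adjusted p = 0.36), with the depleted libraries on both sides. Of 32 secreted protein genes 15 rose (median 1.21; 19 under median-ratio scaling; 8 without Aire+/+ replicate 1 or Aire+/+ replicate 2, 6 without TG Aire-/- replicate 2 and 7 with sex as a covariate). Serpina6, the corticosteroid carrier, rose from 3.19 and 0.323 to 45.9 and 77.6 (log2 difference 4.69, SE 0.544, adjusted p = 0.00219), and F7, a clotting factor, from 11.6 and 4.7 to 54.7 and 39.6 (log2 2.49). Alb, albumin, stood at 24388 and 18964 without and 49396 and 24359 with depletion (log2 difference 0.69, SE 0.728, adjusted p = 0.469). Of 19 pericentral genes 10 rose and 3 fell (5 without TG Aire-/- replicate 2 rising). Glul, glutamine synthetase of the hepatocytes around the central vein, rose from 85.7 and 104 to 164 and 253 (log2 difference 1.1, SE 0.334, adjusted p = 0.036), and Oat, ornithine aminotransferase of the same zone, from 28.2 and 44 to 236 and 313 (log2 2.91). Glul was not called without Aire+/+ replicate 1, Aire+/+ replicate 2, TG Aire-/- replicate 1, TG Aire-/- replicate 2 or depleted replicate 2, without the filter on low values, in the 4 TG Aire-/- libraries alone, with sex as a covariate, or with array weights (limma adjusted p up to 0.108). Without depleted replicate 2 Cps1 was called (log2 1.71, limma adjusted p = 0.0127).

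Lipid synthesis genes rose in part, against 4.49% of all genes tested rising. Of 20 fatty acid and triglyceride synthesis genes 9 rose and 2 fell (median 0.86). Under median-ratio scaling 9 rose and 1 fell, and 4 rose without TG Aire-/- replicate 2. Apart from the 1 member that passed the filter only through the depleted livers, 8 of 19 rose. Scd1, the desaturase that makes oleic acid (chromosome 19, 44394455 to 44407879), went from 3.89 and 5.13 to 376 and 542 RPKM (log2 difference 6.37, SE 0.313, adjusted p = 0.000251), far above the 1.47 and 2.48 of Aire+/+ (log2 7.27, limma adjusted p = 0.000379). Thrsp, a promoter of lipogenesis, went from 0.845 and 0.44 to 65.1 and 141 (log2 difference 5.89, SE 0.538, adjusted p = 0.00153), and Fasn, fatty acid synthase, from 2.5 and 2.26 to 12.9 and 28.7 (log2 difference 2.59, SE 0.376, adjusted p = 0.00351). Of 24 cholesterol genes 12 rose and 1 fell (median 1.29; 18 and 0 under median-ratio scaling; 4 without TG Aire-/- replicate 1 and 2 without TG Aire-/- replicate 2 rising). Cyp51, an enzyme of cholesterol synthesis, rose from 2.55 and 2.33 to 8.93 and 49.1 (log2 2.7). Of 30 gluconeogenesis and fatty acid oxidation genes 6 fell and 0 rose (median −0.38). Among all genes tested 33.5% fell and 4.49% rose, so the 0 rises do not set this list apart. Under median-ratio scaling 2 fell and 3 rose with a median of 0.18, against 16.6% and 7.65% of all genes. The direction of that list thus depends on the scaling. Falls numbered 2 without TG Aire-/- replicate 2, 3 without depleted replicate 1 and 3 with sex as a covariate, and 2 genes rose without TG Aire-/- replicate 1 or depleted replicate 2. Pdk4, a kinase of the fasted state, went from 24.3 and 101 to 4.09 and 1.0 (log2 difference −3.99, SE 0.67, adjusted p = 0.00557), and Cidec, a lipid droplet protein, from 19.1 and 29.7 to 0.41 and 1.79 (log2 −3.65). Cyp51 was not called without TG Aire-/- replicate 1 or TG Aire-/- replicate 2, or without the filter on low values (limma adjusted p up to 0.109).

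The largest single rises were in secreted liver proteins. Hamp, the iron hormone hepcidin (chromosome 7, 30942368 to 30944032), went from 1.39 and 3.02 RPKM to 2815 and 834 (log2 difference 8.95, SE 0.549, adjusted p = 0.000559), against 0 and 0.122 in Aire+/+ (log2 10.5, limma adjusted p = 0.000783). Wfdc21 went from 6.35 and 6.99 to 949 and 971 (log2 difference 6.97, SE 0.264, adjusted p = 7.35e-05). Both depleted libraries exceeded all 4 others in both genes. Hamp2 is a near copy of Hamp, and reads may have been divided between them. Mup3, a major urinary pheromone carrier, went from 5.49 and 1.39 to 315 and 1745 (log2 difference 7.56, SE 0.782, adjusted p = 0.00186), and Mup20 from 10.6 and 5.09 to 52.7 and 15866 (log2 difference 6.78, SE 2.15, adjusted p = 0.0421), nearly all of it in depleted replicate 2. Of 15 tested Mup genes, a list added after the values were seen, 11 rose (median 5.22; 5 without TG Aire-/- replicate 1 or TG Aire-/- replicate 2, 2 without depleted replicate 1 or depleted replicate 2 and 8 with sex as a covariate), 13 of the 15 passed the filter only through the depleted livers, and reads of these near-identical copies cannot be assigned with certainty. Mup genes are higher in male liver and both depleted livers were male, as was TG Aire-/- replicate 1, which held 5.49 RPKM of Mup3 and 10.6 of Mup20. Beyond the sex covariate, a part of sex or age in these rises was not tested. Of 29 acute phase genes 10 rose and 3 fell (median 0.83; 13 and 2 under median-ratio scaling; 4 without TG Aire-/- replicate 1, 3 without TG Aire-/- replicate 2 and 5 with sex as a covariate rising and 0 without TG Aire-/- replicate 2, 1 without depleted replicate 1, 5 without depleted replicate 2 and 1 with sex as a covariate falling). Saa1, serum amyloid A, went from 3.26 and 4.65 to 17.6 and 747 (log2 difference 4.58, SE 1.41, adjusted p = 0.0378), and Orm1, an acid glycoprotein, from 51.1 and 50.4 to 263 and 2656 (log2 difference 4.02, SE 0.907, adjusted p = 0.014), with depleted replicate 2 far above replicate 1 in both. Mup20 was not called without TG Aire-/- replicate 1 or TG Aire-/- replicate 2, under quantile normalization, without the filter on low values, or with sex as a covariate (limma adjusted p up to 0.203). Saa1 was not called without TG Aire-/- replicate 1 or TG Aire-/- replicate 2, without the filter on low values, or with sex as a covariate (limma adjusted p up to 0.158). Orm1 was not called without TG Aire-/- replicate 1 or TG Aire-/- replicate 2, or without the filter on low values (limma adjusted p up to 0.0942).

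Fetal liver genes included the largest fall of all genes called, that of Afp. Of 20 tested oncofetal and imprinted genes 14 fell and Ghr, the growth hormone receptor, rose (median −2.17; 12 and 1 of 18 under median-ratio scaling; falls in 11 of 15 without filter-dependent members, median −3.57), against 33.5% of all genes falling and 4.49% rising. Ghr went from 16.4 and 18.8 to 45.9 and 54 RPKM (log2 1.45). Afp, α-fetoprotein (chromosome 5, 90490737 to 90508907), went from 523 and 742 RPKM to 1.43 and 1.56 (log2 difference −7.96, SE 0.288, adjusted p = 7.35e-05), with 6.27 and 4.69 in Aire+/+. H19, an imprinted RNA of growing tissue (chromosome 7, 142575529 to 142578143), went from 408 and 153 to 7.53 and 11.6 (log2 difference −4.6, SE 0.487, adjusted p = 0.00189), and Igf2, the growth factor of the same imprinted region, from 25.8 and 11.8 to 0 and 0.0429 (log2 −4.18). Gpc3, a fetal liver proteoglycan, went from 55.4 and 70.9 to 0.279 and 0.106 (log2 difference −5.74, SE 0.258, adjusted p = 0.000172). Unlike Afp, H19 and Gpc3 were also called lower in the depleted than in the Aire+/+ livers, which held 487 and 644 and 14.2 and 13.5 RPKM (log2 −5.76 and −3.64, limma adjusted p = 0.0053 and 0.00287). Cyp3a16, a P450 of the young mouse liver, fell from 28.2 and 28.9 to 3.2 and 2.06 (log2 difference −3.04, SE 0.295, adjusted p = 0.00163), under the 111 and 155 of Aire+/+ (log2 −5.2, limma adjusted p = 0.000941).

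The depleted livers stood outside the span of the other livers at several genes that change after birth, picked with their values known. Other hepatocyte genes did not: in Cyp2e1 and Cyp1a2 both depleted livers lay between the untreated TG Aire-/- and the Aire+/+ livers. Against Aire+/+ limma called 27 genes higher (0.221%) and 40 lower (0.327%), with 1327 at an unadjusted p under 0.05. H19, Gpc3 and Cyp3a16 were below both other groups, and Hamp, Scd1, Mup3 and Cyp2a4, a steroid hydroxylase at 184 and 117 RPKM against 4.02 and 0.931 in untreated and 4.29 and 4.4 in Aire+/+ livers, were above both. The labels give the 2 to 4 week range and no single age, and the age of the livers and the depletion cannot be told apart in these 4 libraries.

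**Figure D5:**
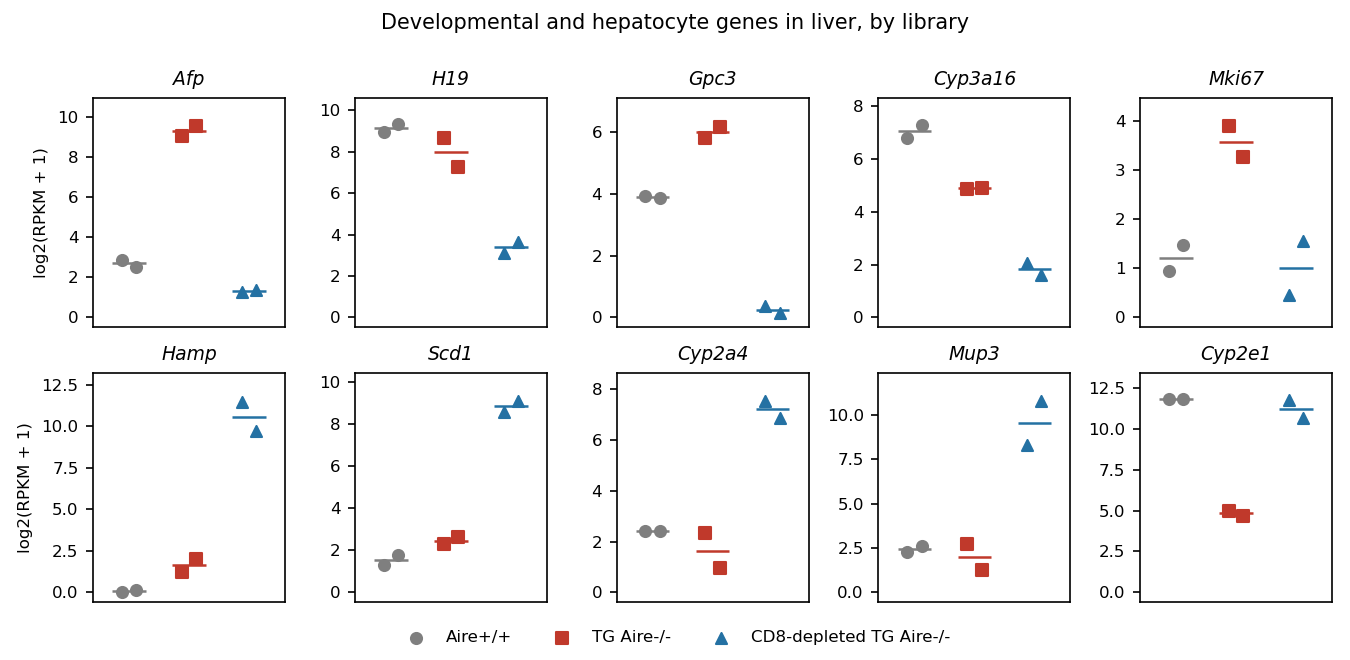
Levels of 10 developmental, proliferation and hepatocyte genes as log2(RPKM + 1) (vertical axes), 1 point per library, left replicate 1 and right replicate 2, coloured by group with lines at the group means. In the panels of H19, Gpc3 and Cyp3a16 the depleted livers lie below both other groups, in those of Hamp, Scd1, Cyp2a4 and Mup3 above both, and Cyp2e1 is low only in untreated TG Aire-/-.

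Genes of the proteins that autoimmune hepatitis and primary biliary cholangitis sera recognise moved in both directions. Falls made up 21.7% of those tested, under the 33.5% of all genes tested, and 4.49% of all genes tested rose. Of 23 tested 6 rose and 5 fell (median 0.27; 8 and 2 under median-ratio scaling; 1 without TG Aire-/- replicate 2, 2 without depleted replicate 1 and 2 with sex as a covariate rising and 3 without TG Aire-/- replicate 1 and 2 without TG Aire-/- replicate 2 or depleted replicate 1 falling). Dlat, the mitochondrial E2 subunit that is the main target in primary biliary cholangitis, stood at 7.37 and 9.74 RPKM without and 8.95 and 7.17 with depletion (log2 difference −0.07, SE 0.269, adjusted p = 0.84), with the groups overlapping. Cyp1a2 and Adh1, an alcohol dehydrogenase, were among the rises, the second from 379 and 247 to 918 and 1083 (log2 1.7). Sp100, a nuclear body protein, fell from 11.2 and 10.1 to 1.52 and 3.56 (log2 difference −1.78, SE 0.323, adjusted p = 0.00707), and Nup62, a nuclear pore protein, from 10.8 and 10.7 to 2.4 and 3.23 (log2 −1.63). Adh1 was not called without TG Aire-/- replicate 2, or with sex as a covariate (limma adjusted p up to 0.0622).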

How the data were processed

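The authors deposited RPKM values of 24786 genes for 6 livers and, in a separate table, for sorted CD8+ T cells. The submitters' processing notes name the aligner STAR 2.5.2b and the build mm10. The sources used here give no counting tool, annotation or strand setting. Reads of near-identical genes cannot be told apart, and 85 genes in 37 sets carry identical values. Depth was inferred from the steps between low RPKM values, of which 41.1% to 47% were whole within 0.1 read (20% by chance), which did not allow whole reads to be recovered or counts to be tested. At that depth 3 reads on a gene of 2 kb correspond to 0.0661 to 0.0739 RPKM.

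Groups and replicate numbers came from the sample titles. Genes with at least 1 RPKM in at least 2 of 6 livers were tested on log2(RPKM + 1) with limma 3.58.1 in R 4.3.3 (intensity trend, two-sided, 3 groups in 1 fit, 3 residual degrees of freedom). Benjamini-Hochberg adjustment ran over all genes tested, with a threshold of 0.05. The procedure was tested on simulated data with independent noise. That simulation held no differences in scaling, sex or single libraries, so it does not bear on the limits they set. Gene positions are from GENCODE vM21 and promoters from RefSeq, both on GRCm38, the assembly that mm10 names. The sorted cells were normalized separately, so levels there are not compared with liver. Replicate numbers were not taken to pair the livers: the deviations of same-numbered libraries correlated at −0.145 between untreated and depleted TG Aire-/-, −0.0925 between Aire+/+ and depleted and 0.292 between Aire+/+ and untreated TG Aire-/- livers, where the numbers also follow sex.

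The members and the gene lists were chosen with earlier results of these data known. Named genes were Cd8a, Cd8b1, Cd4, Aire and Tgfbr2, the 15 largest rises and falls past the threshold without overlap between groups, and in each list the first member and up to 6 called members with the largest change (with none called, up to 3 of the highest level). A part of these are named here, and further list members were named after their values were seen. Values of a few genes are not reported here. The 4 livers without a batch number and the 9 thymus libraries were not analysed here. Alternatives were another pseudocount, filter, scaling or weighting, the replicate number as a block, sex as a covariate, a minimum change, each library left out and, added after seeing the data, the male livers alone and crossed replicate numbers.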

Additional observations from a re-analysis of the deposited data

How the results depend on the processing

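With 2 libraries a group, single libraries carry much of each call, and low genes sit near the filter. The 4097 lower and 549 higher calls stayed within 1.5 times with a pseudocount of 0.1, no filter, no trend and the replicate block (3893 lower and 534 higher, with 387 and 147 of the list members). Crossed replicate numbers gave 4287 lower and 609 higher. Lower calls numbered 2395 with a filter of 5 RPKM. Under median-ratio scaling there were 2001 lower and 923 higher, and under quantile normalization 1405 and 1217. Sex as a covariate gave 2626 and 319, array weights 360 higher, the 4 TG Aire-/- libraries alone 363 higher, a minimum change of 1.5-fold 1331 and 197, and the male livers 228 and 50. Leaving out 1 library gave 1108 to 4198 lower and 186 to 539 higher.

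Over all lists 389 of 863 members fell and 144 rose. Falls numbered 253 under median-ratio scaling, 208 under quantile normalization, 207 with the minimum change, 81 in male livers and 171 to 415 with 1 library left out. Rises numbered 86 without the filter, 89 with the sex covariate, 72 with the minimum change, 23 in male livers and 60 to 143 with 1 library left out. The cause of these shifts was not tested beyond the scaling itself.

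Of the 98 genes named and called in the report 19 lost the call with the minimum change and 40 in male livers alone. None of the genes called in the report changed sign under any alternative. Genes without a call did. Under median-ratio scaling the log2 difference was 0.49 for B2m, 0.45 for Clec4f, 0.44 for Cyp8b1, 0.43 for Dlat, 0.30 for Fas, 0.31 for Irgm2 and 0.058 for Vsig4. Under quantile normalization it was 0.30 for Clec4f, 0.34 for Cyp8b1, 0.56 for Dlat, 0.46 for Fas, 0.33 for Foxp3 and 0.16 for Irgm2. In male livers it was 0.11 for Dlat and −0.058 for Iigp1. With 1 library left out the range of log2 differences was −0.64 to 0.49 for B2m, −0.91 to 0.73 for Clec4f, −0.25 to 1.71 for Cps1, −0.99 to 0.79 for Cyp8b1, −0.25 to 0.11 for Dlat, −0.63 to 0.24 for Fas, −0.058 to 0.44 for Iigp1, −2.09 to 2.72 for Lcn2 and −1.02 to 0.041 for Vsig4.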
